A study of Caenorhabditis elegans with 2 samples.

Results

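The genes described here are those of yolk provisioning in Caenorhabditis elegans: the 6 vitellogenin genes vit-1 to vit-6 and rme-2, which encodes the yolk receptor. All 7 were found by gene name among 19973 protein-coding genes of the WBcel235 annotation. Around each gene, the chromatin immunoprecipitation (ChIP-seq) peaks of the protein Y53G8AR.9 were taken from 500 bp before the gene to 500 bp past it, and positions at the gene's start were set against those at its end. The gene of that name on chromosome III, whose product has CCCH-type zinc fingers, carried a CRISPR insertion of TY1, EGFP and 3xFLAG (strain RW12264, allele st12264). Whole young adults at 64 hours, synchronised as starved L1 larvae after bleaching, gave the chromatin, which a Bioruptor sonicator broke to 200 to 800 bp before an anti-GFP antibody was used. The series holds 1 group with 2 biological replicates, both of this strain. It has no contrast of conditions, a control experiment named in the labels was not analysed here, and all values below are descriptions with no test. How many worms or cultures lie behind a replicate is not stated.

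Vitellogenins are large lipid-carrying proteins of the lipoprotein family. In the adult hermaphrodite the intestine makes them in great quantity and secretes them into the body cavity, from which oocytes take them up. RME-2, a member of the LDL receptor superfamily on the oocyte surface, carries out this uptake by clathrin-dependent endocytosis. The vit genes are thus known as intestinal genes of the adult and rme-2 as a germ-line gene. Whole worms were used, so the tissue in which a peak arose cannot be told apart.

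The vit genes are multiple copies, which bears on where reads can be placed. On chromosome X lie vit-1 (X:7727889-7733168, + strand), vit-2 (X:5101042-5106169, +), vit-3 (X:3567355-3572549, -), vit-4 (X:3558769-3563965, -) and vit-5 (X:3403471-3408603, +). On chromosome IV lie vit-6 (IV:8261157-8266459, +) and rme-2 (IV:5470026-5473174, +). All coordinates are ce11, 1-based. The vit genes are 5128 to 5303 bp long with 5 or 6 exons, and rme-2 is 3149 bp long with 7. In coding sequence, vit-3 and vit-4 were 99% identical, vit-3 and vit-5 97.7%, and vit-4 and vit-5 97.8%. The pair vit-1 and vit-2 was 93.8% identical, whereas vit-6 matched the others at 55.3% to 57.2%. Past the genes this likeness ended: over the 500 bp after the end, vit pairs were 41.6% to 50.9% identical.

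The promoters of the 7 genes are shown because those of the vit genes carry the short elements long known from yolk gene promoters, against which the position of the peaks can be read. Each line gives the 200 bp before the gene start (RefSeq, WBcel235), 5′ to 3′ in the gene's direction. Capitals mark VPE1 (TGTCAAT) and the GATA core (TGATAA) on either strand.
vit-1 (chrX:7727689-7727888, + strand): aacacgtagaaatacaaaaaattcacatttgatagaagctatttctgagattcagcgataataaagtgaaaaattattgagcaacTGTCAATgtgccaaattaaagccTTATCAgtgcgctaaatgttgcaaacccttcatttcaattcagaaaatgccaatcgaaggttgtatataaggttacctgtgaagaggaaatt
vit-2 (chrX:5100842-5101041, + strand): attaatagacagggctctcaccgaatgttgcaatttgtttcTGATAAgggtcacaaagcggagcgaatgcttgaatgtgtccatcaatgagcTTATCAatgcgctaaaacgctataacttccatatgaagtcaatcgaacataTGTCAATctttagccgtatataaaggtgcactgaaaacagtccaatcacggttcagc
vit-3 (chrX:3572550-3572749, - strand): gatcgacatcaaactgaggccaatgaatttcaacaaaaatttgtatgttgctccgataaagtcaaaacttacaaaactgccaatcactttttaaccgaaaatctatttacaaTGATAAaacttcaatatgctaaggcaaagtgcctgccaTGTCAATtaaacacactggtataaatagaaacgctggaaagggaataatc
vit-4 (chrX:3563966-3564165, - strand): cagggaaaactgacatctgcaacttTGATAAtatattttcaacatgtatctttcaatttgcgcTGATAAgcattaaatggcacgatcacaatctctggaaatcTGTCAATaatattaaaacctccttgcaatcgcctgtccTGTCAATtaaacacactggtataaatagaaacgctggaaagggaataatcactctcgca
vit-5 (chrX:3403271-3403470, + strand): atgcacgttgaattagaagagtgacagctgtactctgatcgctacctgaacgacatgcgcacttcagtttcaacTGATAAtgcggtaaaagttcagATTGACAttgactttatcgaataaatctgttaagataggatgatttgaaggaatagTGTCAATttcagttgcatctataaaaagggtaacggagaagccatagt
vit-6 (chrIV:8260957-8261156, + strand): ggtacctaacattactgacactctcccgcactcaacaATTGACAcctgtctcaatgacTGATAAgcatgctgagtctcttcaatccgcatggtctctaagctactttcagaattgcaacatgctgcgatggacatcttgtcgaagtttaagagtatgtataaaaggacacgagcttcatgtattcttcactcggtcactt
rme-2 (chrIV:5469826-5470025, + strand): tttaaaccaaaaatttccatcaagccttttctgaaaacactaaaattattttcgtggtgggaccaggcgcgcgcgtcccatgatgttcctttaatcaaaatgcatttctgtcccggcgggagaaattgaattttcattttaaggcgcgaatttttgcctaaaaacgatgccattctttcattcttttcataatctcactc

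VPE1 was present in the promoters of all 6 vit genes and absent as these letters from that of rme-2, counted over 250 bp before to 50 bp after the start on both strands. Of all coding promoters of that length, 5.77% held it. VPE2 (CTGATAA), the second element described for yolk genes, was in 5 of the 7 promoters (8.15% of all coding promoters). The GATA core was in 6 (30.2%), the longer TGATAAG in 4 (9.19%) and TATAAA in 6 (37.9%). VPE2 and TGATAAG contain the GATA core, so these matches overlap. Counted from the gene start, VPE1 began at position -57 in vit-2, at -50 in vit-3, at -48 in vit-5 and at -115 in vit-1. In vit-4 it stood at both -97 and -59. In vit-6 it lay at -163 on the opposite strand, and vit-5 had a further copy on that strand at -104.

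All 7 genes had a peak at their end, and 3 of 7 had one at their start. The main list is the series-wide list called conservative, which holds 2742 peaks. Their signal, the authors' own peak value in arbitrary units, ranged from 2.09 to 883 with a median of 70.4. A peak enters a thresholded list at a score of 830 or more. That score stands for an IDR (irreproducible discovery rate, low where compared data sets both rank a peak high) of 0.0100. Of all coding genes, 6.99% had a conservative summit within 500 bp of the gene end, 6.03% within 500 bp of the start, and 12.4% anywhere from 500 bp before to 500 bp past the gene, where all 7 yolk genes had one. A longer gene offers a longer window. Among the 4038 coding genes of 3000 to 6000 bp, 6.81% had an end summit, 7.18% a start summit and 14.9% a summit anywhere. On chromosome X all 5 vit genes had an end summit, against 3.7% of the coding genes there.

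**Figure D1:**
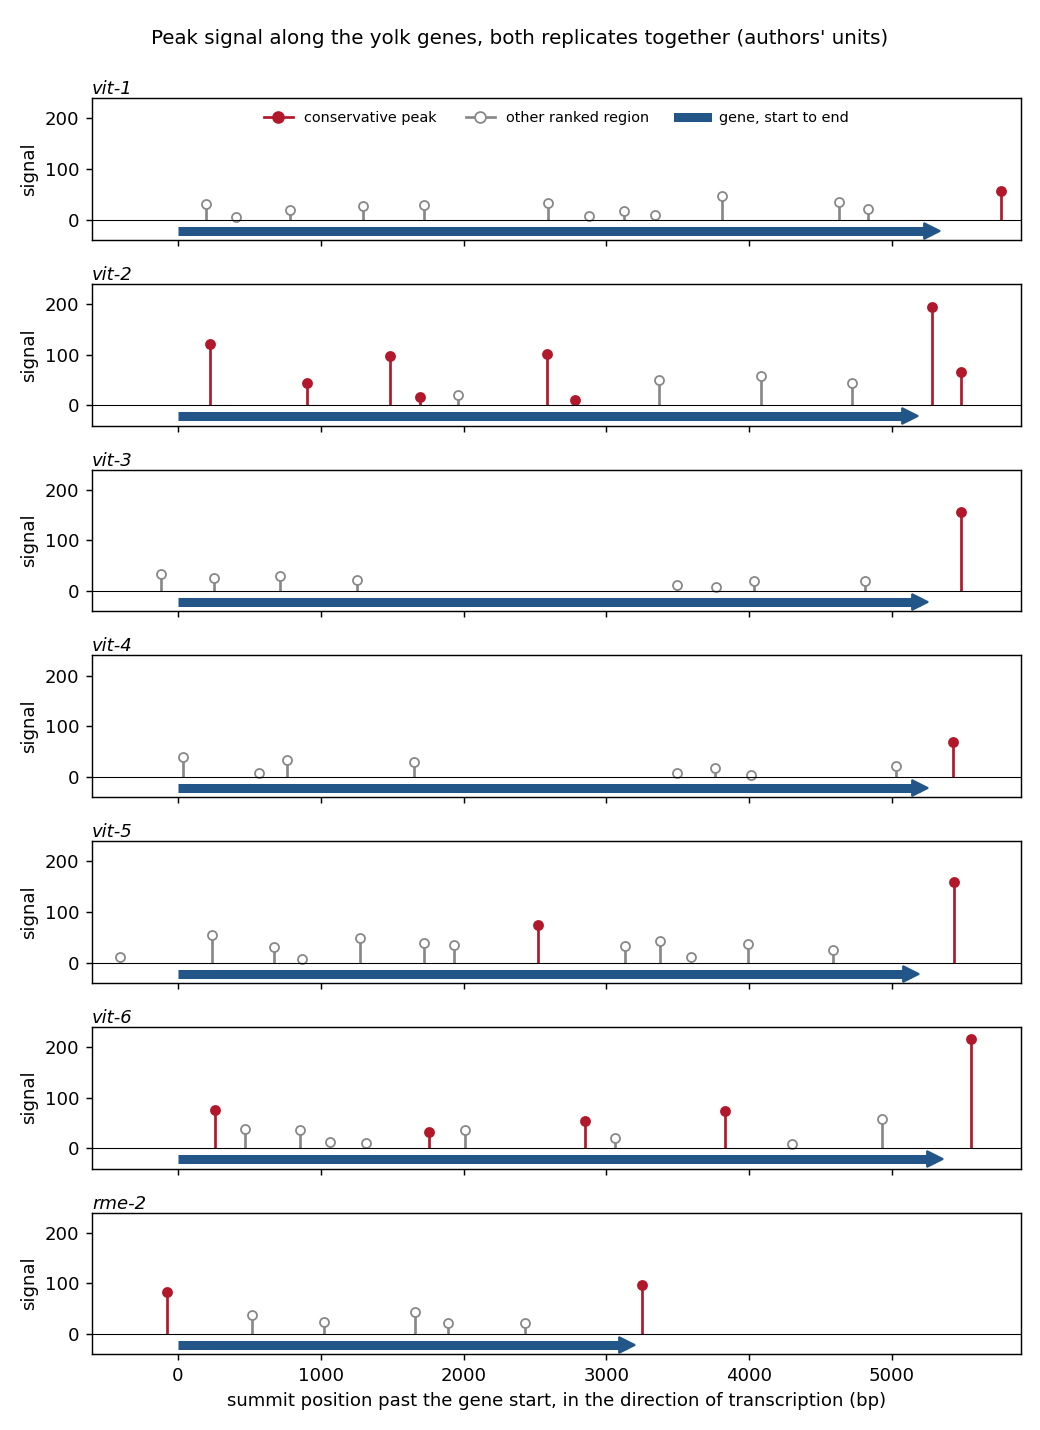
Signal (y axis, authors' units) of each peak or region against the position of its summit past the gene start (x axis, bp) for the 7 yolk genes, both replicates together. Filled red points are conservative peaks, open grey points other ranked regions and the blue arrow the gene. Each gene has a red point just past its end, from 56.15 at vit-1 to 216.72 at vit-6, while red points inside the gene occur at vit-2, vit-5 and vit-6.

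At the ends, the strongest signals belonged to vit-6 and vit-2. The end peak of vit-6 (IV:8266408-8266956) had a signal of 216.72 with its summit 253 bp past the gene. That of vit-2 (X:5105941-5106645) had 193.79, with the summit 154 bp past the gene and a further summit of 66.35 at 356 bp in the same interval. These stood 50th and 72nd among the 1396 coding genes with an end summit. The tandem neighbours vit-3 and vit-4, nearly the same in coding sequence, differed at their ends: vit-3 had 156.16 at 290 bp past the end (X:3566953-3567127), and vit-4 had 69.73 at 228 bp (X:3558381-3558700). At vit-5 the value was 158.75 at 299 bp (X:3408692-3409198). The receptor gene rme-2 had 96.00 at 104 bp (IV:5473118-5473437), 406th in the order. The weakest was vit-1, with 56.15 at 487 bp (X:7733495-7733814), 1186th in the order and below the lower quartile of 62.5 for all end summits.

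Of the summits inside the 500 bp limit, that of vit-1 lay closest to it, and the next outside was a further vit-5 summit of 65.16 at 502 bp. With a limit of 250 bp, 3 of 7 genes (vit-2, vit-4 and rme-2) kept an end summit, since those of vit-6, vit-3 and vit-5 lay 253 to 299 bp out. The share of all coding genes with this limit was not counted.

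**Figure D2:**
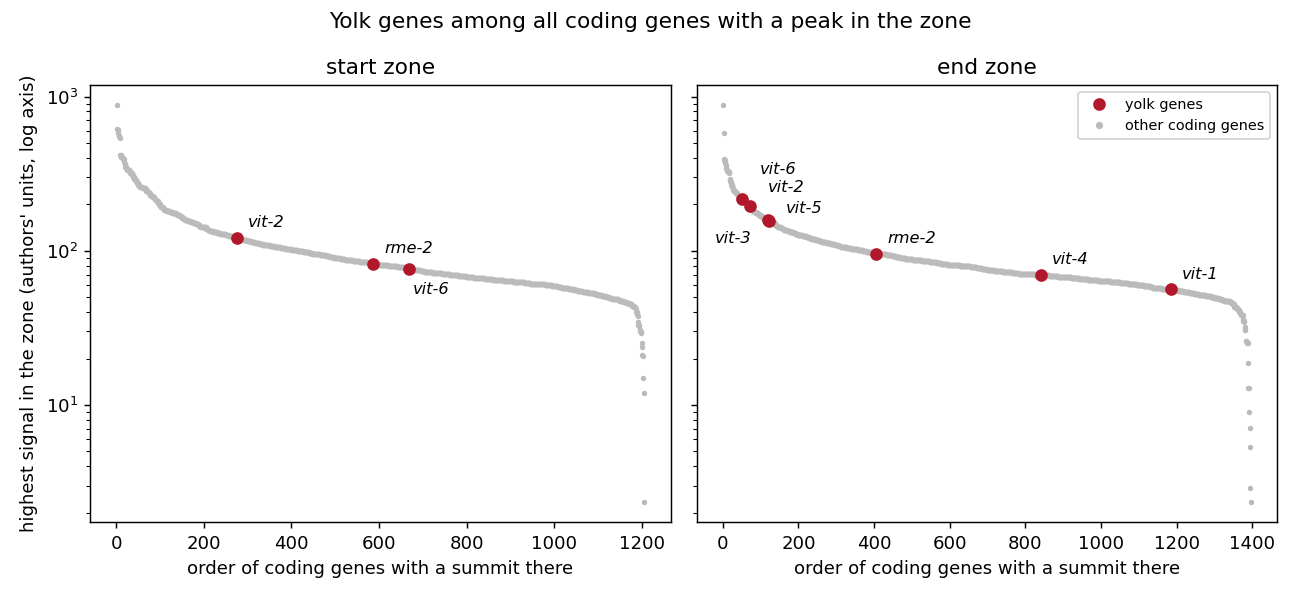
Highest signal (y axis, log scale, authors' units) of each coding gene with a conservative summit within 500 bp of its start (left) or end (right), ordered along the x axis from the strongest. Yolk genes are red and other coding genes grey. At gene ends vit-6, vit-2, vit-5 and vit-3 lie near the strong end of the curve and vit-1 near the weak end, while at starts vit-2 leads rme-2 and vit-6.

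Every conservative end summit of the yolk genes lay past the gene rather than inside it, in 7 of 7 genes at a median of 253 bp for the strongest. Across all coding genes with a conservative end summit, 74.4% of the strongest ones lay past the end, at a median of 129 bp. Other thresholded lists also held end summits inside the gene. Replicate 2's own list had 50.08 at vit-2 (-419 bp from the end) and 39.60 at vit-5 (-96 bp). The other series-wide thresholded list had 44.87 at vit-2 (-410 bp). No other coding start was within 500 bp of the strongest end summit in any of the 7, whereas 34.6% of all end summits had one. Convergent neighbours lay under several of these peaks. The gene set-12, a SET-domain gene, ends 165 bp from vit-1 on the opposite strand, and the vit-1 summit lay in its intron. C42D8.9 overlaps the end of vit-2 by 11 bp on the opposite strand, and the vit-2 summits lay in its coding exons. The actin regulator gene unc-78 ends 70 bp from vit-5, with the summit in a coding exon of unc-78. K07H8.8 ends 184 bp from vit-6, with the summit in its 3′ UTR. Thus in 4 of 7 genes the summit also lay within 500 bp of the end of an opposite-strand gene, against 46% over all coding genes with an end summit. Which of the convergent genes such a peak belongs to cannot be told apart. When a summit counted only where no other coding gene was nearer, 3 of 7 genes (vit-3, vit-4 and rme-2) kept an end peak. The summits of those 3 were intergenic. The share of all coding genes under that rule was not counted.

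The stretches at 4 end summits are shown. Those of vit-3, vit-4 and vit-5 lie past the sequence that these copies share, and rme-2 is not a vit copy. No stretch of 50 bases around these summits recurs in the genome, which also held at the end summits of vit-1, vit-2 and vit-6. Each line gives 101 bp centred on the summit, 5′ to 3′ in the gene's direction, all in lower case because no motif is marked.
vit-3 (chrX:3567015-3567115, - strand): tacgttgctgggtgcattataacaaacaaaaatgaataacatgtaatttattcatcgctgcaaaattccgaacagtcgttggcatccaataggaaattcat
vit-4 (chrX:3558491-3558591, - strand): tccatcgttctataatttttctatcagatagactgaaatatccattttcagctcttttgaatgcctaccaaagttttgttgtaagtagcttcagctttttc
vit-5 (chrX:3408852-3408952, + strand): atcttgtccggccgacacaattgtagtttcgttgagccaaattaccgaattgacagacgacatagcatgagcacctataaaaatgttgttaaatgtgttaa
rme-2 (chrIV:5473228-5473328, + strand): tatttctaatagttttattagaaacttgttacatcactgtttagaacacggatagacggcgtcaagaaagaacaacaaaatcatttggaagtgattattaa

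GC content at the end summits was compared with that at other end summits, not with the genome as a whole. Over these 101 bp, GC content was 29.7% at rme-2, 31.7% at vit-1, 32.7% at vit-4, 34.7% at vit-3, 35.6% at vit-6 and 38.6% at both vit-2 and vit-5. All 7 values were below the median of 40.6% for the strongest end summits of all coding genes (quartiles 35.6% and 47.5%). Those of vit-2 and vit-5 lay above the lower quartile. The weaker summit at the end of vit-2, 356 bp past the gene, stood apart with 57.4%.

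At the starts, only vit-2, vit-6 and rme-2 had a conservative summit, and its side differed between the vit genes and the receptor gene. At vit-2 the peak (X:5101191-5101313) had a signal of 120.76, the highest of the 3, with its summit 222 bp past the start in a coding exon. At vit-6 the peak (IV:8261367-8261474) had 76.50, with its summit 262 bp past the start, also in a coding exon. Both conservative intervals lay wholly inside the gene and did not reach the promoter stretches printed above. They are 123 and 108 bp wide, less than the fragments of 200 to 800 bp, so their edges do not show where signal ends. Ranked regions of single replicates did reach those stretches: IV:8261154-8261417 at vit-6 in replicate 1 (IDR 0.0634) and X:5100771-5101014 at vit-2 in replicate 2 (IDR 0.0653). At rme-2 the peak (IV:5469789-5470108) had 82.49 and its summit lay 77 bp before the start, within the promoter stretch printed for it. Over all coding genes with a start summit, 25.8% of the strongest summits lay past the start, and the median position was -154 bp. Among the 1205 such genes, vit-2 stood 276th, rme-2 587th and vit-6 668th. The median signal was 81.1.

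The start summits of the vit genes are shown because they sit in coding sequence and are far richer in GC than the strongest end summits. Each line gives 101 bp centred on the summit in the gene's direction.
vit-2 (chrX:5101214-5101314, + strand): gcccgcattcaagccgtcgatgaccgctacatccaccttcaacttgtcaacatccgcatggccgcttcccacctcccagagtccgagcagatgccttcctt
vit-6 (chrIV:8261369-8261469, + strand): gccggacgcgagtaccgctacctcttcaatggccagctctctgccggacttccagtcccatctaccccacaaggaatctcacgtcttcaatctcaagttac

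GC content over these stretches was 58.4% at vit-2 and 55.4% at vit-6, both above the upper quartile of 51.5% for start summits of all coding genes. At rme-2 it was 39.6%, under the lower quartile of 40.6%.

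The starts of the other 4 vit genes held ranked regions that stayed under the threshold. The ranked list of both replicates together holds 87350 regions, thresholded or not, with a median signal of 18.7. Its strongest region near the start had a signal of 53.78 at vit-5 (IDR 0.606), 39.95 at vit-4 (0.791), 32.96 at vit-3 (0.577) and 30.29 at vit-1 (0.121). For comparison the IDR at the start was 9.34e-05 at vit-2, 0.00123 at rme-2 and 0.00493 at vit-6. Among these 4, the region of vit-5 lay 240 bp past the start and that of vit-1 194 bp past it, close in position to the start peaks of vit-2 and vit-6. That of vit-4 lay 37 bp past the start, and that of vit-3 was at -116. A weaker region of vit-3, 254 bp past the start, had a signal of 25.84 (IDR 0.562). The single replicates did not repeat the vit-5 position: summits lay at 79 and 379 bp in replicate 1 and at 68 and 372 bp in replicate 2. For vit-1, replicate 1 had a region at 197 bp (IDR 0.682), and replicate 2 had no ranked summit within 500 bp of the start. In the other series-wide ranked list the IDR was 0.108 for the vit-5 region and 0.789 for the vit-4 region. It was 0.631 for the stronger vit-3 region and 0.351 for the vit-1 region. None of these regions passed the threshold there either. A ranked region of any IDR at the start was common: all 7 genes had one, against 58.5% of coding genes.

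Seen per gene, 4 of the 7 had an end summit without a start summit, 3 had both, and none had a start summit alone. Of the coding genes over 1000 bp with a summit at either place, 46.5% had it at the end alone, 39.3% at the start alone and 14.2% at both. In each of the 3 genes with both, the end signal was the higher: 216.72 against 76.50 at vit-6, 193.79 against 120.76 at vit-2, and 96.00 against 82.49 at rme-2. How often the end was the higher among the 262 coding genes over 1000 bp with both was not counted. The order at these 3 genes is therefore not shown to differ from that at other genes. In the ranked lists of the single replicates the end was also the higher at vit-2 and vit-6. At rme-2 the order differed between replicates: replicate 1 had 43.57 at the end and 40.87 at the start, and replicate 2 had 29.88 and 32.57.

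The replicates differed in which of these peaks passed the threshold. In replicate 1's own list, 4 of 7 genes had an end summit (3.9% of coding genes), none had a start summit (3.44%) and 4 had one anywhere (7.3%). In replicate 2's own list, 5 had an end summit (3.47%), 2 a start summit (3.15%) and 5 one anywhere (6.55%). In both lists, 3 genes had an end summit (vit-2, vit-3 and vit-6), against 2.29% of coding genes. Signals of a replicate below are those of its strongest ranked region that overlaps the conservative peak.

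At the end of vit-6, replicate 1 had 117.80 and replicate 2 had 79.59, the highest of the 7 in each. At the end of vit-2 it was 95.36 and 65.45, and at the end of vit-3 it was 82.13 and 64.63. These 3 passed the threshold in each replicate, and the vit-3 summit lay 291 bp past the gene in replicate 1 and 316 bp in replicate 2. The end of vit-5 had 75.47 in replicate 1, 363rd of its 55886 ranked regions, and 71.57 in replicate 2, 276th of 53072, and the summits lay 344 and 346 bp past the gene. Only replicate 2 passed there, however, with an IDR of 4.05e-05 against 0.0332 in replicate 1. The end of vit-4 had 32.00 (IDR 0.0161) in replicate 1 and 43.10 (IDR 0.00727) in replicate 2, so that replicate 2 alone passed. At the end of rme-2 replicate 1 alone passed, with 43.57 against 29.88 in replicate 2. The IDR was 0.00959 in replicate 1 and 0.013 in replicate 2, on either side of the threshold. At vit-1 the overlapping region of replicate 1 passed with 45.00, but its summit lay 678 bp past the gene and outside the 500 bp limit. That of replicate 2 had 26.98 at 411 bp and did not pass (IDR 0.0938).

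At the starts, vit-2 had 60.20 in replicate 1 (IDR 0.0146) and 55.25 in replicate 2 (IDR 0.000606), so replicate 2 alone passed. The start of vit-6 had 27.12 and 42.73, with IDR of 0.0634 and 0.00122, and again replicate 2 alone passed. The start of rme-2 had 40.87 and 32.57, with IDR of 0.0227 and 0.0253, so it passed in neither of the single lists. Replicate 1 thus had none of the 3 start peaks past its threshold.

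**Figure D3:**
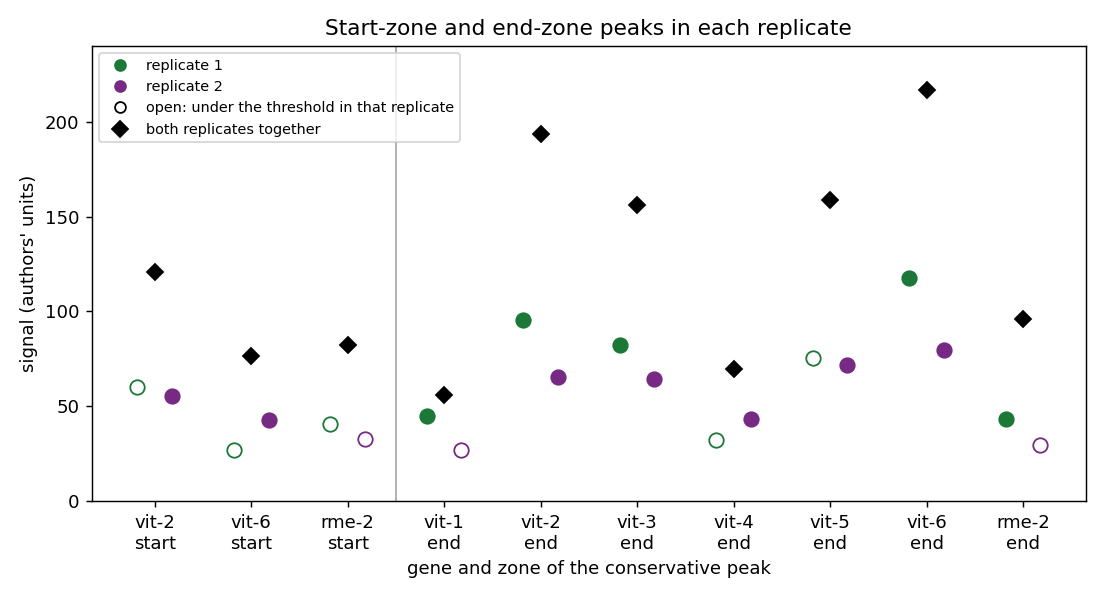
Signal (y axis, authors' units) at the conservative start and end peaks of the yolk genes (x axis) in replicate 1 (green), replicate 2 (purple) and both together (black diamonds). Open circles are regions under the threshold of that replicate. At vit-2, vit-3 and vit-6 the end peak passed in both replicates, and at the starts replicate 1 has open circles alone. The replicate 1 region at the end of vit-1 has its summit 678 bp past the gene.

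Inside the genes, vit-2 and vit-6 carried several further peaks. Counting every summit between start and end, vit-2 had 6 conservative summits, vit-6 had 4 and vit-5 had 1, and the other 4 genes had none. Of the coding genes of 3000 to 6000 bp, 7.43% had at least 1 such summit, 0.272% (11 genes) had at least 4 and 0.0743% (3 genes) had at least 6. In vit-2 the strongest beyond the start zone were 100.89 at 2582 bp past the start and 97.75 at 1488 bp, both in coding exons. The other 3 were 44.04 at 905 bp, in an intron, 16.52 at 1698 bp and 11.18 at 2781 bp. These summits are not all separate peaks. The interval of the 11.18 summit (X:5103663-5103982) overlaps that of the 100.89 summit (X:5103545-5103717). A single region of replicate 1 (X:5102430-5102693) overlaps the intervals of both the 97.75 and the 16.52 summit. In vit-6 the summits beyond the start zone were 73.64 at 3834 bp, 54.38 at 2850 bp and 32.59 at 1758 bp, all in coding exons. The peak inside vit-5 had 73.21 at 2523 bp, close in position to the 100.89 peak of vit-2. The other series-wide thresholded list, whose derivation differs in ways not described, did not hold the peaks of 44.04 and 11.18 in vit-2 or that of 32.59 in vit-6. It held further ones of 57.23 at 4080 bp and 44.87 at 4717 bp in vit-2.

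Peaks inside the genes recurred in part between replicates. Near 1500 bp past the start of vit-2, replicate 1 had a thresholded summit of 64.90 at 1520 bp and replicate 2 one of 30.47 at 1536 bp. Near 2600 bp they had 66.64 at 2529 bp and 41.88 at 2615 bp. In vit-6, replicate 2 had thresholded summits of 45.07 at 3784 bp and 32.50 at 2917 bp, near conservative ones, and others of 33.75 at 4766 bp and 31.37 at 883 bp. Replicate 1 had a single thresholded summit inside vit-6, of 20.32 at 2011 bp. No thresholded summit of either replicate lay near the peak inside vit-5.

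Ranked regions, with or without passing the threshold, lay inside all 7 genes. There were 12 summits inside vit-1, vit-5 and vit-6 each (2.26 to 2.34 per kb), 10 inside vit-2 (1.95 per kb), 8 inside vit-4 (1.54), 7 inside vit-3 (1.35) and 5 inside rme-2 (1.59), the conservative summits included. The coding genes of 3000 to 6000 bp had a median of 1.08 per kb (quartiles 0.318 and 1.55). In the single replicates the values ranged more widely, with vit-6 at 1.89 and 2.45 per kb and vit-3 at 0.962 and 0.192, around medians of 0.587 and 0.558 for genes of this length. At vit-1, with 12 such regions and no conservative peak inside, the strongest had a signal of 47.49.

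Sequence repeated elsewhere in the genome differed widely between these genes, and its values are given beside the peaks. Of all 50-base stretches from 500 bp before to 500 bp past the gene, 66.8% at vit-4, 62.9% at vit-3 and 41% at vit-5 occurred more than once in the genome. At vit-2 the share was 11%, at vit-1 10.7%, and at vit-6 and rme-2 it was 0%. Between the zones at either end, it reached 83.5% in vit-4, 79.5% in vit-3 and 54.6% in vit-5. Short reads from such stretches cannot be placed on a single copy, and the labels and deposited descriptions do not say how they were treated. The absence of peaks inside vit-3 and vit-4 and at their starts, where 45% and 45.9% of the 50-mers were repeated, is therefore uncertain, and the part of repeats in it was not tested. At the starts of vit-1 and vit-5 the shares were 1.7% and 3.8%. There were 0 conservative summits inside vit-1 and 6 inside vit-2, and the part of repeats in this was not tested. Around each end and start summit of the 7 genes, 0% of the surrounding 50-mers (90 at vit-1, where the window ends, and 201 at the others) were repeated. Around the vit-5 summit inside the gene, 49.8% were repeated, and their part in that peak was not tested. In vit-2 the share was 0% at the 100.89 peak and 10.9% at the 97.75 peak.

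**Figure D4:**
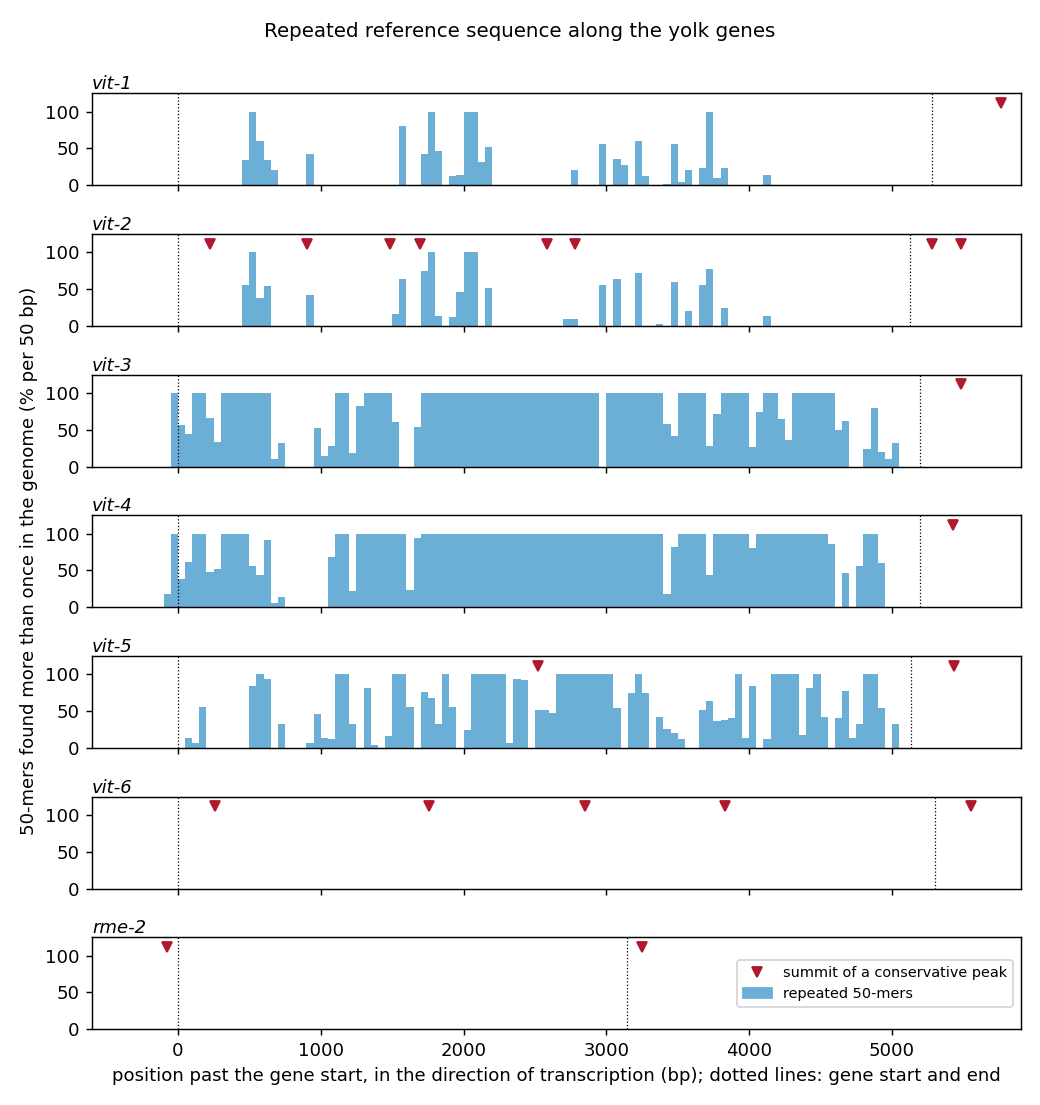
Share of 50-base stretches found more than once in the genome (y axis, % per 50 bp) along each yolk gene (x axis, bp past the gene start), with red triangles at the summits of conservative peaks and dotted lines at the gene start and end. Blue fills most of vit-3 and vit-4, is patchy in vit-1 and vit-2 and absent from vit-6 and rme-2, and no end summit lies in it.

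Some genes matched a yolk gene closely in signal over 3 values, the strongest region at the same zone in the ranked lists of replicate 1, replicate 2 and both together (Euclidean distance of log2 signals). At the start, vit-2 was closest to snpc-3.4 (distance 0.040 among 6200 genes with all 3 values) and then to ran-1 and dkc-1, which share a region (0.067). The start of vit-6 was closest to F01G10.10 (0.089). That of rme-2 was closest to ZK856.11, ZK856.16 and ZK856.19, whose values are equal (0.071). At the end, vit-2, vit-5 and vit-6 matched their convergent neighbours at a distance of 0.000 because the peak is the same. Beyond these neighbours, the end of vit-6 was closest to F31F7.1 (0.060), that of vit-5 to pyc-1 (0.106) and that of vit-2 to klp-18 and tin-9.1 (0.124). The end of vit-3 was closest to lgg-2 and lsm-7 (0.074), that of vit-4 to T05C3.2 and dnj-19 (0.067), that of rme-2 to pqn-48 and rpn-11 (0.101) and that of vit-1 to htp-2 (0.123, with 15.10 and 29.70 as the strongest regions of vit-1 in replicates 1 and 2 inside the 500 bp). Those replicate regions of vit-1 had summits at -99 and -415 bp from the end, inside the gene. The match to htp-2 is therefore not one of the vit-1 end peak, whose summit lay at 487 bp. At the end 7137 genes had all 3 values.

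Of 14 known regulators of vitellogenin transcription, 3 had a conservative end summit, 1 a start summit and 6 a summit anywhere in the window, against the 6.99%, 6.03% and 12.4% of all coding genes given above. Genes of this list reach 46333 bp (daf-2) and 26206 bp (daf-16), and a longer gene offers a longer window. The 12.4% is not matched for gene length, so the 6 cannot be read as a trait of these regulators. The end summits were those of pqm-1, which encodes a zinc finger protein (signal 204.78, 392 bp past the end), lin-29, which encodes a zinc finger protein of developmental timing (163.34, inside the gene) and ceh-60, which encodes a PBX-type homeodomain protein (161.79, inside the gene). All 3 passed in both replicates. The kinase gene akt-1 of the insulin pathway had a start summit of 64.71, which passed at the start in neither of the single lists. The intestinal GATA factor genes elt-2 and elt-7 and the MEIS-type gene unc-62 had none at either place.

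Of 22 genes of endocytosis and recycling, through which yolk and its receptor pass, 4 had a start summit (6.03% of all coding genes), 4 an end summit (6.99%) and 6 a summit anywhere (12.4%). The adaptin gene apb-1 had the strongest, 182.42 at -246 bp from the start, in both replicates, and the clathrin adaptor gene dpy-23 had 88.37 at -318 bp. The small GTPase gene rab-11.1 had 49.01 at the start and 84.08 at the end, and rab-7 had 65.47 and 78.01. The recycling gene rme-1 had 53.25 at its end and the clathrin heavy chain gene chc-1 had 25.14, and neither gene had an end summit in a single replicate.

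Of 14 genes for lipoprotein receptors, their adaptors, lipid-binding proteins and yolk processing, cpl-1 alone had a conservative summit in its window (12.4% of all coding genes). It encodes a cathepsin L protease, with 45.64 at its start and 212.61 at 150 bp past its end, the second value close to the 216.72 of vit-6. In a single replicate each, lrp-2 had an end summit and dab-1 a start summit. A list of 16 genes for the eggshell and oocyte also holds the sperm gene spe-41. Of these 16, 5 had a start summit (6.03% of all coding genes), 6 an end summit (6.99%) and 9 a summit anywhere (12.4%). The chitin-binding gene cbd-1 had the strongest, 176.66 at its end and 46.54 at its start. The eggshell proteoglycan genes cpg-1 and cpg-2 had 126.41 and 116.88 at their ends, and cpg-2 also 94.72 at its start. The RNA regulator gene puf-5 had 91.67 at its end, and perm-4, a gene of the eggshell's permeability barrier, had 49.49. The chitin synthase gene chs-1 had 63.84 at the start and 54.23 at the end, egg-1, for an oocyte surface protein needed at fertilisation, had 66.70 at the start, and oma-2, for a CCCH zinc finger protein of oocyte maturation, had 71.40 there. The end peaks of cbd-1, cpg-1, cpg-2, puf-5 and cpl-1 passed in both replicates. The lists are small and were chosen with earlier results of these data known, so their counts are descriptions. In none of them is the share for a summit anywhere matched for gene length.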

How the data were processed

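Peak lists of 2 replicates and of both together were analysed, 8 lists in all. Per the deposited text descriptions, they are on ce11 and derive from filtered alignments and a control alignment. Aligner, peak caller, versions and read length: not given in the sources used here. Each deposited signal is a value of the authors' caller, and no source states its scale or any correction for depth. The deposited score is the authors' integer form of the IDR. The ranked lists add the authors' −log10 of it, converted here to IDR. Without read counts the depth stays unknown, and intervals that need it are left out. Signals rank peaks within 1 list only.

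Genes are from Ensembl release 115 (WBcel235) and sequences from RefSeq's genome of the same build. Every peak ended within its chromosome. Zones are 500 bp to each side of the outermost gene start or end. Zone assignment was tested on simulated peaks. Coding sequences were aligned with mafft 7.526, and repeated stretches of 50 bases were counted on both strands. Replicate values at a peak are those of the overlapping ranked region with the highest signal. Scripts ran in Python 3.11.15. Members, gene lists and windows were chosen with earlier results of these data known. The genes named are the 7 members, neighbours within 2000 bp, list genes with a conservative summit at start or end, and the 3 most alike genes. Of these neighbours and alike genes only those a result turns on are printed. Alternatives were other lists, windows and definitions.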

Additional observations from a re-analysis of the deposited data

How the results depend on the processing

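The number of genes with an end summit (7) was 3 with 250 bp, 3 where no other coding gene may be nearer, 5 in the upper 50% of peaks, and 4 to 5 in a single replicate's own list. The number with a start summit (3) was 7 over all ranked regions, thresholded or not, where 58.5% of coding genes also had one, 2 with 250 bp, and 0 to 2 in a single replicate. A summit anywhere (7) was found for 4 to 5 genes in a single replicate, 5 with 250 bp, 5 in the upper 50% of peaks and 6 where no other coding gene may be nearer. The other thresholded list, 1000 bp and any overlap gave 7, 3 and 7 genes for end, start and anywhere. Apart from the single replicates' lists and the ranked regions at the start, shares of all coding genes were not counted for these alternatives. Their counts therefore cannot be set against the shares of the main definition. With 250 bp the highest signal was 73.21 at vit-5 and 76.50 at vit-6. Where no other coding gene may be nearer it was 120.76 at vit-2, 73.21 at vit-5 and 76.50 at vit-6. These changes follow from the construction, since fewer peaks count.

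In a single replicate's thresholded list, whose signals are on a scale of their own, the highest was 65.45 to 95.36 at vit-2, 64.63 to 82.13 at vit-3 and 79.59 to 117.80 at vit-6. It was 43.10 at vit-4 and 71.57 at vit-5 (replicate 2) and 43.57 at rme-2 (replicate 1).

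With 500 bp before the start in place of 250 bp, the share of coding promoters was 10.6% for VPE1, 13% for VPE2, 46.2% for the GATA core, 13.6% for TGATAAG and 56% for TATAAA. Over the 7 windows together, 28.7% of 50-mers were repeated, against 32.6% of 36-mers and 20.5% of 100-mers. No paired analysis was possible because the series has a single group and no test was made. With 2 replicates and unknown depth, a peak missing from a list is not shown to be absent.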
